A study of Mus musculus with 2 samples.

Results

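Of 56116 regions enriched for H3K9me3 in a mouse embryonic stem cell line, 847 lay at the starts of noncoding RNA genes or pseudogenes and away from every protein-coding gene. H3K9me3 is trimethylation of lysine 9 of histone H3, read here by ChIP-seq. A region was a member when it overlapped 1 kb either side of a transcript start of a gene annotated as lincRNA, processed_transcript, antisense or pseudogene in GENCODE M1 on mm9, and overlapped neither the body of a protein-coding gene nor 1 kb either side of a protein-coding start. The choice used the position and extent of a region, not its strength. In this annotation 0 genes were of the antisense biotype, so the 847 regions served 889 genes: 693 pseudogenes, 151 processed_transcript genes and 45 lincRNA genes.

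The series holds 1 group, E14TG2a.4 cells with the antibody H3K9me3, in 2 biological replicates from separate biosamples. E14TG2a.4 is a male line of strain 129/Ola, labelled as embryonic with an age of 3.5 day, and the labels give no treatment and no genetic change. Both replicates are of 1 line, so their spread is that between cultures of that line. The deposited data were lists of regions, so read depth is unknown, and no control library was analysed. With 2 replicates an exact sign-flip test cannot go below a 2-sided p of 0.5, so the values below are a description, given for each replicate. "Pooled list" names the mm9 list that carries no replicate number, and whether it pools the replicates is not stated.

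Long noncoding RNAs are transcripts with no known protein product, and some, such as H19, Meg3 and Xist, are known regulators of imprinting, growth or X inactivation. Pseudogenes are copies of genes that no longer code for the full protein. A processed pseudogene arose by reverse transcription of a messenger RNA and its insertion elsewhere, and an unprocessed pseudogene arose by duplication of the gene. H3K9me3 is a mark of silent chromatin that in stem cells is known at repeats, at imprinted control regions and in clusters of duplicated genes.

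Several sets of these starts carried nearly the same sequence, and the mark differed strongly between sets. The first set is the largest family of like starts, 52 short pseudogenes, and it is shown because nearly all of its members were marked. The sequences run from 5′ to 3′ on the strand given, in mm9, and capitals mark bases that differ from the first sequence. Each covers 100 bases around the family's commonest stretch of 24 bases, which lay in 21 of the 52 starts. Only starts holding that stretch could be shown, so some likeness is fixed by the choice.
Gm14969 (chrX:122956688-122956787, + strand): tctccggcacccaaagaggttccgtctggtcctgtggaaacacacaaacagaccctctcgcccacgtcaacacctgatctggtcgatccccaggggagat
Gm14789 (chrX:88748890-88748989, − strand): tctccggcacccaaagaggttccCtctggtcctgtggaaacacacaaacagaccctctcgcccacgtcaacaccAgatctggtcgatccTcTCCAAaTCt
Gm11402 (chr11:6140281-6140380, − strand): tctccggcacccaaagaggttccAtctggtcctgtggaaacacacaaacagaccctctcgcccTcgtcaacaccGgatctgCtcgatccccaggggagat
Gm15064 (chrX:72856617-72856716, − strand): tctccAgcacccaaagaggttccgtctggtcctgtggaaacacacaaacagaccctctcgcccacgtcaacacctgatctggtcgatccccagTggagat
These stretches were 90%, 96% and 98% identical to that of Gm14969. All were marked in both replicates.

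The second set is a family on chromosome X, shown because starts with and without a member region nearby were nearly the same in sequence. Gm7391 and Gm7438 had member regions within 1 kb of the start and Gm2066 did not. The nearest pooled region lay 464 bp from the start at Gm7391 and 468 bp at Gm7438. The printed bases were nearer to the start, so they lay outside those regions.
Gm7391 (chrX:27432172-27432271, + strand): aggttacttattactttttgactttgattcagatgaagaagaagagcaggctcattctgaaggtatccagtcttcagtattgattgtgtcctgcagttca
Gm7438 (chrX:29786168-29786267, + strand): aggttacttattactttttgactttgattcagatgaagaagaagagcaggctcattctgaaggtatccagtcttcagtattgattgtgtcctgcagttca
Gm2066 (chrX:28533892-28533991, − strand): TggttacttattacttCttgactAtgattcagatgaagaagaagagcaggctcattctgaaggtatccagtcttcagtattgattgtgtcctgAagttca
The first pair did not differ over these 100 bases, and Gm2066 was 96% identical to them.

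The third set holds 3 single starts: H19 and Meg3, the imprinted genes with a member region, and Gm14149, the gene at the member region with the highest pooled fold. Each covers 200 bases around the annotated 5′ end, on the gene's strand, and capitals mark CpG, the dinucleotide at which mammalian DNA is methylated.
H19 (chr7:149763949-149764148, − strand): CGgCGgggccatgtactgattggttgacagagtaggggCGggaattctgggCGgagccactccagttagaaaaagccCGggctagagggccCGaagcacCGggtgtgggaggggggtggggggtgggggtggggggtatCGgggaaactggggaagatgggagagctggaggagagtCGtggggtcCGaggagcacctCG
Meg3 (chr12:110779111-110779310, + strand): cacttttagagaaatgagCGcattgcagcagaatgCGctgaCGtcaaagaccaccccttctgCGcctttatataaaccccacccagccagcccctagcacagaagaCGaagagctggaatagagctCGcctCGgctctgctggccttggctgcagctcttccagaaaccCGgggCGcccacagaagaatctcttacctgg
Gm14149 (chr2:151030831-151031030, + strand): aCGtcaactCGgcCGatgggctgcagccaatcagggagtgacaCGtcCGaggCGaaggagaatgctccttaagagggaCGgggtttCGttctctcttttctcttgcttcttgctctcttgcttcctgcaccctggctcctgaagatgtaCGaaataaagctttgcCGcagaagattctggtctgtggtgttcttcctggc
These stretches held 11 CpG at H19, 9 at Meg3 and 10 at Gm14149.

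Pseudogene starts were marked more often than lincRNA starts. To count shares, a gene was called clear when the window around at least 1 of its starts touched no protein-coding gene body or start window. Of 5311 clear genes, 882 had a member region, 16.6%. A start or gene is called marked when it had a member region, and unmarked when it was clear and had none. Some unmarked genes, such as Airn and Gm14079, thus had a region at the start that also touched a protein-coding gene. The share was 18.5% of 3734 pseudogenes, 12.9% of 1158 processed_transcript genes and 10.3% of 419 lincRNA genes. On the replicates' own lists, pseudogenes had 15.5% in replicate 1 and 17.7% in replicate 2, processed_transcript genes 9.15% and 11.3%, and lincRNA genes 7.64% and 8.35%. The order of the biotypes was the same in both replicates. Unprocessed pseudogenes had 20.6% of 797 and processed pseudogenes 17.2% of 2632. Protein-coding genes, counted with any pooled region at a start, had 8.47% of 22367, with 6.33% in replicate 1 and 7.83% in replicate 2. That count takes all genes, clear or not. Counted so in the pooled list, pseudogenes had 16.5% of 5201, processed_transcript genes 9.14% of 2572 and lincRNA genes 7.23% of 1273. By that count lincRNA genes were below protein-coding genes.

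**Figure D1:**
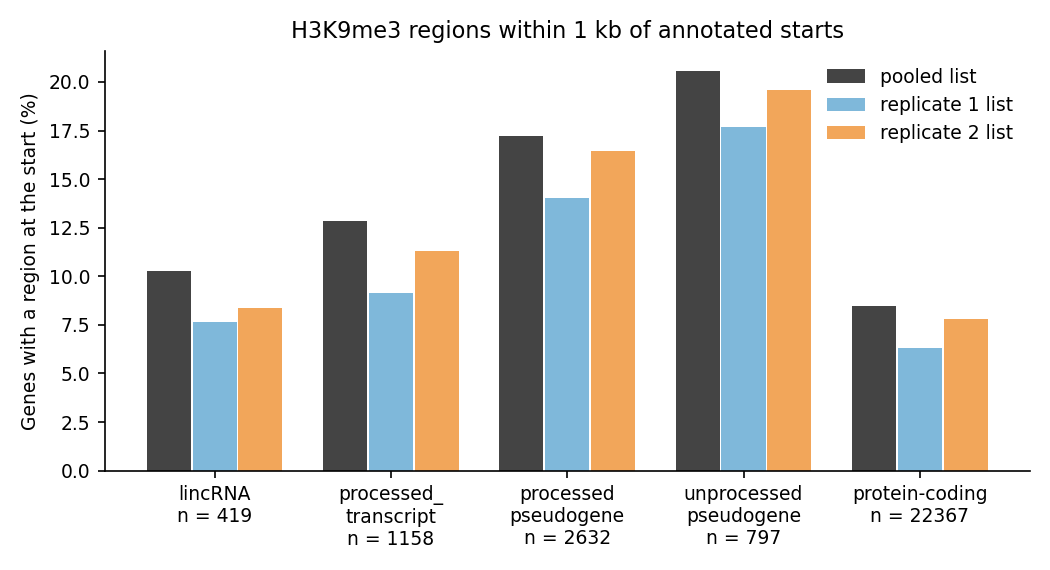
The bars give the percentage of genes with an H3K9me3 region within 1 kb of a start, for clear noncoding genes and pseudogenes by kind and for all protein-coding genes, in the pooled list and in each replicate's list. In the pooled list unprocessed pseudogenes stand highest at 20.6% and protein-coding genes lowest at 8.47%, but these bars are not counted alike. With all genes and any region counted, lincRNA genes had 7.23%, below protein-coding genes.

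The cover did not peak at the starts themselves. In the pooled list 14.1% of clear pseudogenes had a region at the base of their outermost 5′ end, against 18.2% at the base 10 kb before it and 18.6% at the base 10 kb after it. In replicate 1 these values were 12.1%, 14.7% and 16.3%, and in replicate 2 they were 13.5%, 17.3% and 17.5%. The lincRNA genes had 5.49% at the start, 9.31% before and 7.88% after it in the pooled list. The processed_transcript genes had 8.89%, 10.9% and 9.84%. In the pooled list each kind was thus lower at the start than 10 kb to either side, and so were protein-coding starts, where 3.21% had a region at the start base, 9.54% at 10 kb before and 7.68% at 10 kb after.

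**Figure D2:**
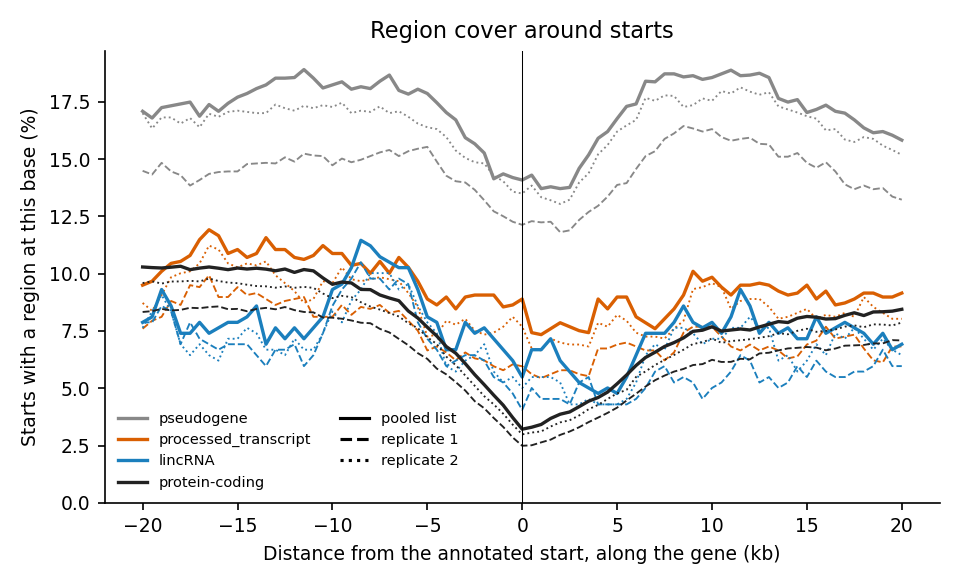
The lines give the percentage of genes with a region at the base a given distance (kb) from the outermost annotated 5′ end, positive along the gene, for clear pseudogene, processed_transcript and lincRNA genes and for protein-coding genes. Solid, dashed and dotted lines are the pooled list, replicate 1 and replicate 2, and the pseudogene lines stand highest throughout but dip to 14.1% at the start in the pooled list.

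Most members reached the start itself. In 591 members, 69.8%, a start lay inside the region, and in the other 256 the nearest start was 1 to 1000 bp away. The 52 members whose nearest start lay in the last 200 bp of the window had a median pooled fold enrichment of 2.91, and the 51 non-members whose nearest start lay up to 200 bp beyond it had 2.82. Pseudogenes were often swallowed whole: in 53.3% of 706 region-gene pairs the whole pseudogene lay inside the region, against 20.9% of 153 pairs with processed_transcript genes and 4.35% of 46 pairs with lincRNA genes. The genes differed in length, with a median of 766 bp for these pseudogenes, 7399 bp for processed_transcript genes and 14581 bp for lincRNA genes.

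The member regions had a higher median fold than other regions outside protein-coding genes. The fold enrichment is the authors' linear value for each region, and its denominator is not stated. In replicate 1 the median was 3.44 at 675 regions that met the rule on that replicate's list, against 2.83 at 32438 other intergenic regions. In replicate 2 it was 4.27 at 793 regions, against 3.38 at 39757. Members exceeded other intergenic regions by 0.62 in replicate 1 and by 0.89 in replicate 2 (exact sign-flip test, 2-sided p = 0.5, the smallest that 2 replicates allow). The median width was 5600 bp against 4200 bp in replicate 1, and 5200 bp against 3800 bp in replicate 2. A wider region is more likely to reach a start window, so the rule itself favours width and this difference is no finding.

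The fold differed between width classes, so it was also read within them. Under 2 kb the median fold was 3.63 at members and 3.35 at other intergenic regions in replicate 1, and 3.69 and 3.59 in replicate 2. At 2 to 4 kb it was 2.89 and 2.69 in replicate 1, and 3.21 and 3.05 in replicate 2. In the pooled list the order turned under 2 kb, with 2.97 at members and 3.03 at other intergenic regions. Among regions of 4 to 8 kb, the median fold was 3.37 at members and 2.62 at other intergenic regions in replicate 1, and 4.13 and 3.21 in replicate 2. Among regions of 8 to 16 kb it was 3.95 and 3.64 in replicate 1, and 5.42 and 4.60 in replicate 2. At 16 kb or more the order turned in replicate 1, with 4.47 at members and 4.60 at other intergenic regions, while replicate 2 had 6.60 and 6.24. In both replicates the difference was thus widest between 4 and 8 kb, and it had no constant sign in the widest class.

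**Figure D3:**
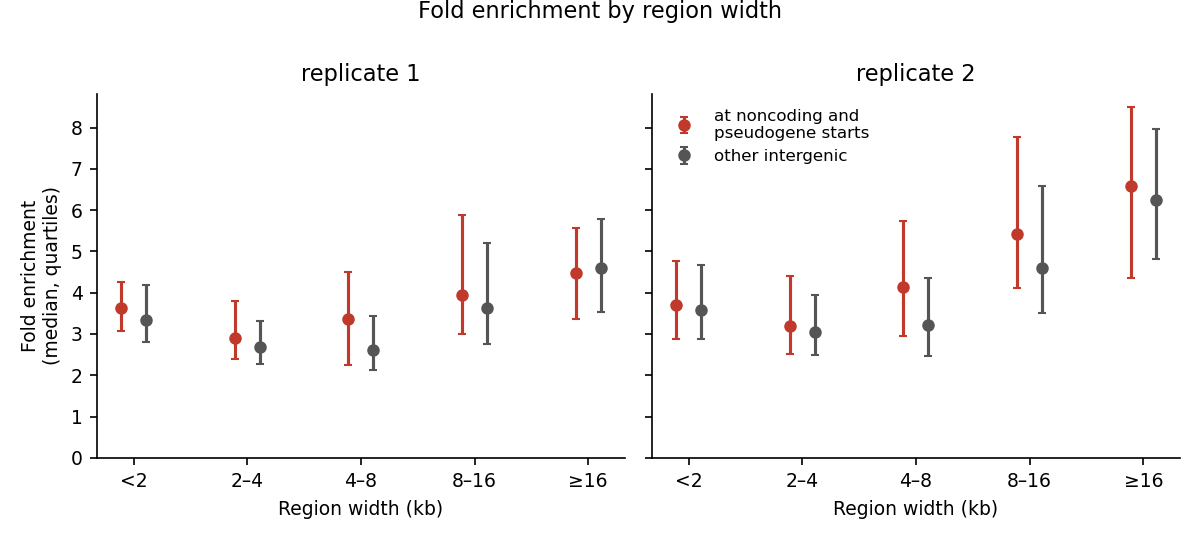
Points give the median fold enrichment, and bars the quartiles, of regions at noncoding and pseudogene starts and of other intergenic regions in 5 width classes (kb), for each replicate. Among regions of 4 to 8 kb members stand above other intergenic regions in both replicates, and at 16 kb or more they do so in replicate 2 only.

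Replicates shared most members. Regions of both replicate lists overlapped 684 of 847 members, 80.8%, against 73.7% of 41317 other intergenic regions. Replicate 2 alone overlapped 116 members and replicate 1 alone 9, and 38 were overlapped by neither. Those found in both had a median pooled fold of 3.83, those in replicate 2 alone 2.53, those in replicate 1 alone 1.88 and those in neither 2.07. Within width classes the shares were close to those of other intergenic regions: 31.8% against 29.4% under 2 kb, 65.3% against 67.2% at 2 to 4 kb and 92.4% against 93.0% at 4 to 8 kb. Across the 684 members, which are regions and not replicates, the 2 replicates' folds had a Spearman rho of 0.91. Replicate 2 was the higher in 629 of the 684, with a median ratio of 1.31, and in 87.7% of other intergenic regions found in both, with a median ratio of 1.26.

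**Figure D4:**
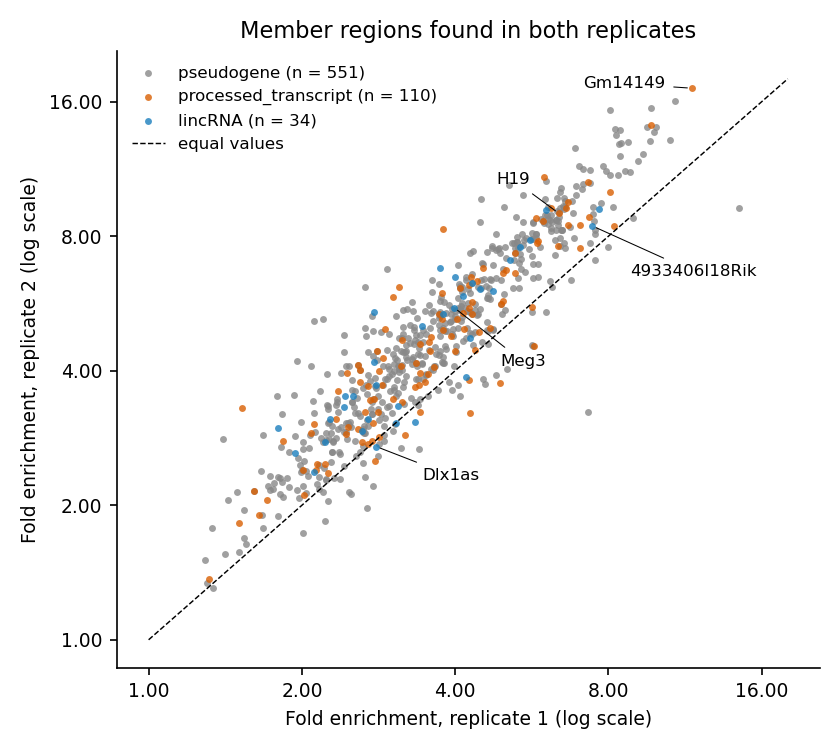
Each point is a member region overlapped in both replicates, at the fold enrichment of the strongest overlapping region of replicate 1 and of replicate 2, on log axes, and a region at starts of several biotypes is drawn for each. Most points lie above the line of equal values, with Gm14149 at the upper end.

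The member with the highest pooled fold, 13.5, lay at Gm14149, a processed_transcript gene, with 11.6 in replicate 1 and 17.2 in replicate 2. Its region spans chr2:151030601-151037800. The region at Gm11288, a pseudogene on chromosome 13, had 10.8 in replicate 1 and 16.1 in replicate 2. Its edge was 758 bp from the start in the pooled list, and the region of replicate 2 did not reach the window of 1 kb. The region near Gm10294, a pseudogene on chromosome 7, had 9.70 and 15.5, and it ended 997 bp from the start, just inside the window. In all 3, replicate 2 was the higher.

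The next regions had close values. Gm14951, a processed_transcript gene on chromosome X, had 9.71 in replicate 1 and 14.2 in replicate 2. Gm4760, a pseudogene on chromosome X, had 9.81 and 13.7. Rpl19-ps11, a copy of a ribosomal protein gene on chromosome 8, had 9.54 and 14.03. These 3 starts lay inside their regions.

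Among the last 4 of the 10 strongest by pooled fold, Olfr1343-ps1, an olfactory receptor pseudogene on chromosome 4, had 8.25 in replicate 1 and 13.9 in replicate 2. Gm7391 on chromosome X had 8.27 and 13.5. Xlr3e-ps, a pseudogene of the Xlr3 genes on chromosome X, had 8.42 and 13.8, and Gm13606 on chromosome 2 had 8.75 and 13.0. A trait the rule did not use was common to them: in 9 of the 10 regions high-copy sequence, meaning bases that start a 16-mer with 50 or more copies in mm9, made up over 50%, with a median of 86.6% over the 10, against a median of 36.2% over all 847 members. Their CpG density lay between 18.8 and 29.8 per kb, against 11.2 per kb over all member sequence. Over a wider set, counted over bases and not per region, the high-copy share differed little. It was 44.6% over the 343 members with a pooled fold of at least 4, which include these 10, against 43.4% over all member sequence.

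Among lincRNA genes the highest pooled fold, 8.70, was at 4933406I18Rik on chromosome 7, with 7.44 in replicate 1 and 8.43 in replicate 2. The region at 2610035D17Rik on chromosome 11 was narrow, at 1.2 kb, and higher in both replicates, with 7.66 in replicate 1 and 9.21 in replicate 2, and it had the highest CpG density of all members, at 35.8 per kb. At 4930448N21Rik on chromosome 8 the values were 6.04 and 9.17. The median over the members at each biotype's starts was 3.51 in replicate 1 and 3.96 in replicate 2 for processed_transcript genes, 3.33 and 3.52 for lincRNA genes, and 3.59 and 4.44 for pseudogenes. After Gm14149 and Gm14951, the processed_transcript gene with the next pooled fold, 8.58, was 9130204K15Rik on chromosome 11, at 7.30 and 10.6.

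The widest member was 56.8 kb, over Gm10505, a processed_transcript gene on chromosome 17, with 4.26 in replicate 1 and 5.54 in replicate 2. The region at 2810429I04Rik, a lincRNA gene on chromosome 13, spanned 48.4 kb, with 3.44 and 5.03. The region over Fam47a-ps on chromosome X spanned 46 kb in the pooled list. In the replicate lists, the region at its start had 4.68 over 16.8 kb in replicate 1 and 6.27 over 26 kb in replicate 2, while the strongest regions under the pooled one had 8.37 and 10.97.

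Of 10 annotated genes in a list of imprinted noncoding RNAs, 2 had member regions, and 3 more had a region that also touched a protein-coding gene. H19, a maternally expressed growth regulator, had 6.39 in replicate 1 and 8.997 in replicate 2, in a region of 13.6 kb. Meg3, a maternally expressed RNA of the Dlk1-Dio3 domain, had 3.98 and 5.53, in a region of 22.2 kb. Both were marked in both replicates, and both regions were poor in high-copy sequence, with 2.02% at H19 and 5.20% at Meg3, against 43.4% over all member sequence.

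The 3 imprinted genes outside the rule had a region in both replicates as well. Nespas, the antisense RNA of the Gnas locus, had 5.25 in replicate 1 and 7.40 in replicate 2. Igf2as had 6.27 and 7.87, and Airn, the antisense RNA that silences Igf2r, had 3.28 and 5.14. No region of the pooled list lay at the starts of A330076H08Rik, Nctc1, Rian, Mirg or Dio3os. Rian and Mirg belong to the domain of Meg3, and their starts had no region in either replicate.

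No start of Xist, Tsix or Enox, the genes of the X inactivation centre that were annotated, had a region in the pooled list or in either replicate. Xist is the RNA that coats the inactive X and Tsix is its antisense repressor. The same held for all 8 annotated host genes of small nucleolar RNAs, Gas5 among them, of which 5 were clear. Of 10 widely expressed long noncoding RNAs, all clear, Meg3 was the only member gene, and Malat1, Neat1, Tug1 and Pvt1 had no region. Of 6 annotated developmental RNAs, Dlx1as was the member gene, at 2.80 in replicate 1 and 2.71 in replicate 2, and it was also the member gene among those named as antisense or opposite strand transcripts, of which 6 of 17 were clear and 5 of 17 had a pooled region at a start. Six3os1 had a region of 5.19 in the pooled list that touched a protein-coding gene, with 5.68 in replicate 2 and no region in replicate 1. These lists are too short for a share to be set against the 16.6% of all clear genes.

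In the pooled list the longer lists of pseudogenes had shares near or below that background, which was 13.5% in replicate 1 and 15.6% in replicate 2. All lay below the 18.5% of clear pseudogenes, which had 15.5% in replicate 1 and 17.7% in replicate 2. Ribosomal protein pseudogenes had member regions at 9 of 79 clear genes, 11.4%, with 7.59% in replicate 1 and 11.4% in replicate 2. Their median fold was 3.41 in the pooled list. After Rpl19-ps11, the strongest were Rpl12-ps2 with 4.50 in replicate 1 and 9.71 in replicate 2, Rps19-ps9 with 3.84 and 4.89, and Rps18-ps1 with 4.64 and 4.59. The order of the replicates thus turned at Rps18-ps1.

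Olfactory receptor pseudogenes, remnants of the odorant receptor family, had 18 of 132 clear genes, 13.6%, with 11.4% in replicate 1 and 14.4% in replicate 2. Olfr1374-ps1 had 6.90 and 9.89, Olfr22-ps1 had 5.91 and 8.74, and Olfr337-ps1, in a region of 38.2 kb, had 5.32 and 7.51. Vomeronasal receptor pseudogenes, remnants of pheromone receptor genes, had 17 of 102, 16.7%, with 18.6% in replicate 1 and 13.7% in replicate 2. There, replicate 1 had the higher share, above its background of 13.5% and above the 15.5% of clear pseudogenes in that replicate. Vmn1r-ps128 had 14.4 in replicate 1 and 9.25 in replicate 2, the highest value of any member in replicate 1, and its pooled region was 0.8 kb wide. Vmn2r-ps11 had 7.45 and 9.30, and Vmn1r-ps71 had 4.48 and 5.49. Of 5 zinc finger pseudogenes and noncoding genes, Zfp783 was marked, at 3.57 and 4.43. All 482 clear genes named as pseudogenes by the ending -ps had a share of 16.4%.

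Starts in families of 2 to 9 like sequences were marked more often than single starts. Once the largest family was left out, starts in families of 10 or more were marked less often than those in families of 2 to 9. Starts were grouped by their 300 bases alone: starts that shared at least 60 of their 16-mers, on either strand, were joined. This grouping was added after the regions had been seen. Among starts with no relative, 14.1% of 3983 were marked. Among starts in families of 2 to 9 it was 22.3% of 911, and in the 26 families of 10 or more it was 29.0% of 424. With 100 shared 16-mers the shares were 14.8%, 23.8% and 27.2%, and with 150 they were 15.3%, 22.8% and 32.3%. The largest family supplied 50 of the 123 marked starts in families of 10 or more. Without it, 19.6% of 372 were marked, with 15.3% in replicate 1 and 17.2% in replicate 2, below the 22.3% of families of 2 to 9. Without its starts the share in families of 10 or more was 16.9% of 254 with 100 shared 16-mers and 17.6% of 153 with 150. With 100, these families had 12.2% in replicate 1 and 14.2% in replicate 2, near the 11.5% and 13.6% of single starts. With 150 they had 12.4% and 13.1%, against 11.8% and 13.9% of single starts, so the order turned in replicate 2. With 60, single starts had 10.9% and 13.0%.

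The families differed widely among themselves. In the largest family 50 of 52 starts were marked, and the same number in each replicate's list. Its pseudogenes lay on chromosomes 2, 3, 4, 11, 17 and X, 25 of them on X, and were 104 to 447 bp long. All 52 resembled transcripts of the protein-coding gene Gm11678, with a median identity of 96.5% over a median of 150 bases. Among the 50, the fold ran from 3.09 to 7.92 in replicate 1, with a median of 5.56, and from 3.83 to 11.3 in replicate 2, with a median of 7.81. Replicate 2 was the higher in 49 of the 50.

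All 50 starts lay inside their region, which was 5 kb wide at the median. Of the 2 other starts, Gm14079 had a region of 5.44 in the pooled list that also touched a protein-coding gene, and Gm14672 on chromosome X had none in any list. With 100 shared 16-mers it fell into smaller families, of which the 2 with at least 10 starts were marked at 23 of 23 and 13 of 13.

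Regions also lay over copies of this sequence away from the family's starts. The commonest stretch of 24 bases in the family, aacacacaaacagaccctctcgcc, lay in 21 of its starts and in 711 places on 20 chromosomes of mm9, counting both strands. Of these 711 copies 691 lay in a pooled region, 97.2%, and 691 lay in a region of each replicate's list. For scale, pooled regions covered 274.7 Mb, and mm9 held 2558.5 Mb of sequence. The family was picked because nearly all its starts were marked, and other stretches with as many copies were not counted. The 691 copies fell in 678 different pooled regions, with a median fold of 5.88. Reads from near-identical copies cannot be assigned to 1 place, and their handling is not stated. The values at single copies are thus uncertain, and the copies are not separate observations. No repeat annotation was used, and the family is named here only by its genes.

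The family of Gm7391 on chromosome X was marked at 13 of 17 starts. Its starts resembled the protein-coding gene Gm4297, with a median identity of 94.8% over 247 bases. In replicate 1, 12 of the 13 had a region, with folds of 3.62 to 10.6 and a median of 8.11, and in replicate 2 it was 12 of the 13, with 3.41 to 14.01 and a median of 11.04. Gm2066, Gm2092, Gm7350 and Gm7365 had no region in any list. The regions often lay beside the start and not over it: 5 of the 13 starts lay inside their region and the others up to 781 bp away. The shared stretch of 24 bases, aagaagagcaggctcattctgaag, had 45 copies in mm9, all on 1 chromosome, and 6 of them lay in a pooled region, 3 in a region of replicate 1 and 9 in one of replicate 2.

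Another family, on chromosome 7, was marked at 9 of 12 starts, and 10 of the 12 resembled the zinc finger gene Zfp954, at 79.5% identity. Gm3585 had 5.67 in replicate 1 and 7.23 in replicate 2, Gm3589 had 6.76 and 6.396, and Gm7230 had 6.15 and 6.36. A family on chromosome 12, similar to Asap2, was marked at 7 of 10 starts, one similar to Rpl3 at 6 of 10, one similar to Kars at 4 of 10 and one similar to H3f3a at 3 of 11. Other families of 10 or more had smaller shares. Among starts similar to Vmn2r39 2 of 24 were marked, among those similar to Rpl21 2 of 23, to Hmgb1 2 of 20 and to Rps12 0 of 13. A family of Astx genes with Gm14950 had 0 of 12 marked.

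**Figure D5:**
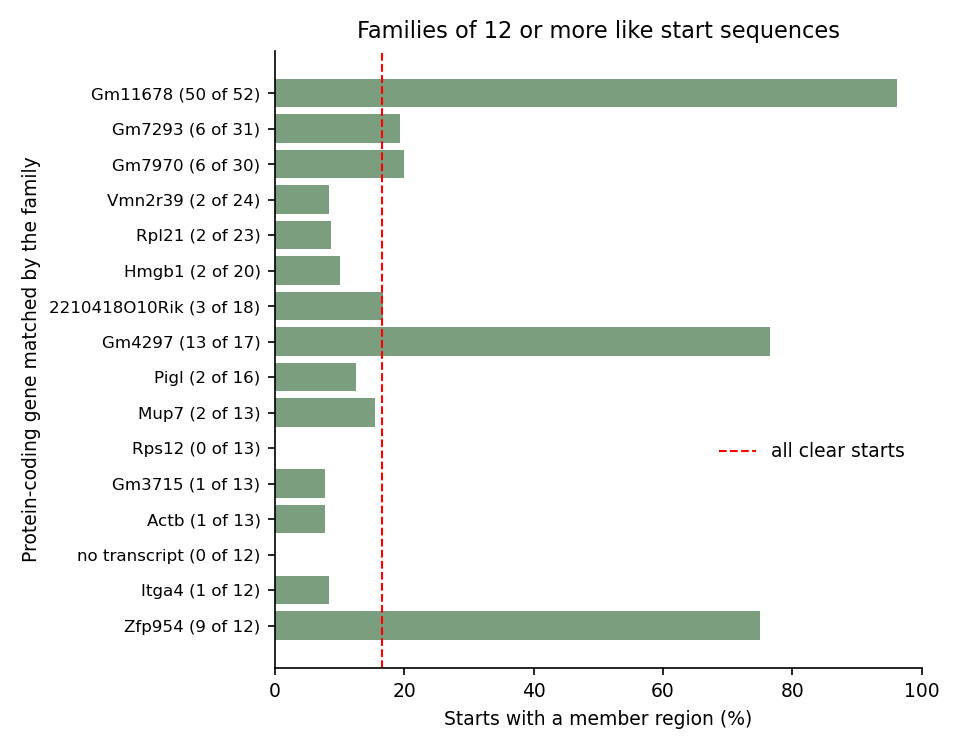
Bars give the percentage of starts with a member region in the 16 families of 12 or more like starts. Each is labelled with its count of marked starts and, where there was one, the protein-coding gene that most of its matching starts hit. In the family labelled Actb, only 2 of 13 starts matched that gene. The dashed line is the 16.6% of all clear starts, and the families of Gm11678, Gm4297 and Zfp954 stand furthest above it at 50 of 52, 13 of 17 and 9 of 12.

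The high-copy share of a start went with the mark. Of 217 clear starts with over 50% high-copy bases in their 300 bases, 51.2% were marked, with 47.5% in replicate 1 and 49.3% in replicate 2. Of 1017 starts with none, 13.6% were marked, with 11.1% and 13.4%. The largest family makes up part of this: without it, 37.5% of 168 starts with over 50% high-copy bases were marked. The CpG count of the start showed no such order, with 16.2% marked at 0 to 2 CpG, 16.3% at 3 to 5, 17.5% at 6 to 11 and 16.8% at 12 or more.

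Over whole regions, high-copy sequence made up 42.9% of members in replicate 1 and 43.02% in replicate 2, against 53.2% and 52.4% of other intergenic regions and 18.8% of the genome. Members were thus poorer in high-copy sequence than other intergenic regions in both replicates. They were richer in it than regions within 1 kb of a protein-coding start, which had 31.4% and 31.8%. Members held 11.7 and 11.4 CpG per kb in replicates 1 and 2, against 10.0 and 9.78 in other intergenic regions and 8.34 in the genome. Regions at protein-coding starts were close to members, at 11.06 and 11.05. The hexamer TGCCGC, which the zinc finger protein ZFP57 binds at imprinted regions when methylated, was counted on both strands. Members had 0.162 and 0.148 per kb in replicates 1 and 2, against 0.102 and 0.0949 in other intergenic regions. Regions at protein-coding starts had 0.145 and 0.140, so the higher density was not particular to members. At the starts the hexamer lay in the 300 bases of 8.73% of 882 marked and 6.82% of 4429 unmarked clear genes, and in 1.78% of 300-base tiles of the genome. It holds a CpG, and these sets differed in CpG, with a mean count of 6.11, 5.97 and 2.41 in that order. A match is a run of letters and not a bound site.

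Members were unevenly spread, largely as the annotation was. Chromosomes 2, 4, 11 and X held 133, 137, 93 and 145 of the 847 members, and 875, 809, 546 and 1132 of the 5311 clear genes. By share of clear genes, chromosomes 8, 13 and 7 were highest, at 23.8%, 23.8% and 23.7%, and chromosome 9 was lowest of the autosomes at 7.81%. Chromosome X had 12.6%, below the 16.6% of all chromosomes, with 10.5% in replicate 1 and 12.2% in replicate 2.

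The members on X were few for its genes but strong. Their median fold was 4.54 in replicate 1, against 3.32 on autosomes, and 5.51 in replicate 2, against 4.03. The families of Gm11678 and Gm7391 made up part of this difference: without their regions the medians on X were 3.78 in replicate 1 and 4.92 in replicate 2, against 3.18 and 3.96 on autosomes. Other intergenic regions differed the same way, with 3.38 on X and 2.79 on autosomes in replicate 1, and 4.09 and 3.33 in replicate 2. The line is male and has a single X, and the denominator of the fold is not stated, so the effect of copy number was not tested.

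Most windows with a member held a single one. Of 495 windows of 1 Mb with a member, 313 held 1, and the 24 windows with 5 or more held 146 members. The window from 23 Mb on chromosome 13 held 9 members, led by Vmn1r-ps128, Gm11328 and Gm11331, and the window from 36 Mb on chromosome 2 held 9, led by the olfactory pseudogenes Olfr337-ps1 and Olfr359-ps1 and by Gm13431. Gm11328 had 4.98 in replicate 1 and 5.95 in replicate 2, and Olfr359-ps1 had 3.91 and 5.15. Both the window from 8 Mb on chromosome 7 and that from 22 Mb on chromosome 8 held 8. On chromosome 7 they were led by Gm3611, with 4.82 and 7.45. On chromosome 8 they lay among defensin pseudogenes, remnants of genes for antimicrobial peptides: Defa-ps18 had no region in replicate 1 and 5.43 in replicate 2, and Defa-ps8 had 3.20 and 4.56. These windows also held many unmarked starts, with 10 marked of 21 clear genes on chromosome 13, 9 of 16 on chromosome 2, 10 of 24 on chromosome 7 and 8 of 27 on chromosome 8.

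The mm10 lists, made of narrow peaks, gave another reading of the same genes. Of the 889 genes with a member region, 556 could be matched by name to RefSeq positions on GRCm38.p6, and 354 of these, 63.7%, had a peak of the authors' replicated list within 1 kb of the body. Of 2993 matched clear genes with no member region it was 491, 16.4%. Some of these genes, such as Airn, had an mm9 region at the start that also touched a protein-coding gene. By replicate the shares were 60.6% and 68.9% at genes with a member region, against 18.4% and 22.2% at genes without. Marked lincRNA genes had a replicated peak at 26 of 31, processed_transcript genes at 69 of 78, processed pseudogenes at 194 of 296 and unprocessed pseudogenes at 42 of 108. Both sets of lists come from the same cultures, so they are not independent. Among genes with a body under 1 kb the shares were 62.4% of 210 marked genes and 5.81% of 1085 unmarked ones, and at 20 kb or more they were 72.7% of 66 and 60.1% of 338, a narrower gap.

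At H19 the mm10 peaks had up to 10.7 in replicate 1 and 22.7 in replicate 2 and the replicated list covered 59.3% of the gene with its flanks. At Meg3 the values were 4.94 and 7.38, with 17.7% covered. Xist, Tsix and Enox had none in either replicate. Among imprinted genes with no pooled mm9 region at a start, Rian and A330076H08Rik had none in either replicate. Nctc1 had mm10 peaks of 3.12 in replicate 1 and 2.15 in replicate 2 but none in the replicated list. Mirg had a peak of 4.10 in replicate 2 only, and the replicated list covered 1.88% of it. By pooled mm9 fold, the share of matched genes with a replicated peak was 40.7% of 59 under 2, 67.0% of 285 at 2 to 4, 75.2% of 121 at 4 to 6, 54.5% of 66 at 6 to 8 and 48% of 25 at 8 or more. Of the genes of the 10 strongest mm9 regions 8 were matched, and a replicated mm10 peak lay at 2, Gm4760 with 58.7% and Gm14149 with 1.13% covered. Rpl19-ps11, Olfr1343-ps1, Gm10294, Gm11288 and Gm7391 had no mm10 peak in either replicate, and Xlr3e-ps had one in replicate 2 only.

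The share with an mm10 peak fell with the number of like starts. Among marked genes whose start had no relative it was 75.7% of 379, in families of 2 to 9 it was 44.3% of 131, and in families of 10 or more 19.6% of 46. Among unmarked genes it was 18.8%, 9.39% and 6.36%. Of the family of Gm7391, 15 of 17 genes were matched and 0 had a peak in the replicated list, the pooled mm10 list or either replicate. Of the largest family none was matched, so its mm10 cover was not read. The mm9 and mm10 lists differed in region type and build, and the part of reads that map to several places was not tested.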

How the data were processed

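H3K9me3 ChIP-seq of 2 biological replicates of E14TG2a.4 cells was used as deposited lists of regions. Per the file lists deposited with each sample, the mm9 lists are broadPeak lists and the mm10 lists narrowPeak lists. The fold enrichment in both is a linear ratio deposited by the authors. The authors also deposited a p-value and a q-value for each mm9 region and the −log10 p and −log10 q for each mm10 peak. Of these, only the mm10 q was used, for 1 alternative. The aligner, the peak caller and the handling of reads mapping to several places are not stated, and wide regions reach a start from further away than narrow peaks. Depth is unknown.

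The regions, gene lists and families were chosen with earlier results of these data known. Strength was ranked by pooled fold. Named genes were the 10 strongest members, the 3 strongest per biotype, the 3 widest, the leading genes of the densest windows of 1 Mb (4 windows, since a pair tied), all genes of the imprinted and X inactivation lists, and up to 4 of the strongest of each other list. The families and the sequences of their members were chosen after their values were seen. Annotation was GENCODE M1 (Ensembl 65) on mm9, and chromosomes 1 to 19, X and Y were used. A region needed 1 bp of overlap. A replicate's value at a member is its strongest overlapping region, and at a gene of a list or family its strongest region in the start windows. Sequence was read from mm9, with a base called high-copy when it began a 16-mer present at least 50 times. Start sequences were the 150 bases before and after the outermost 5′ end, and families were compared with protein-coding transcripts by BLAST+ 2.17.0 (E value at most 1e-10). Gene names were matched to RefSeq by symbol or synonym on the same chromosome, with no conversion of coordinates. Python 3.11 code was checked on simulated intervals and sequences.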

Additional observations from a re-analysis of the deposited data

How the results depend on the processing

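No paired analysis was possible because the series has 1 group. Applying the rule to 1 replicate's list (without the other) gave 675 to 793 regions, 13.5% to 15.6% of clear starts marked, a median fold of 3.44 to 4.27, a high-copy share of 42.9% to 43.02%, 11.4 to 11.7 CpG per kb, and 25.02% to 29.5% of matched genes with an mm10 peak, against 23.8% with the replicated mm10 list. For sequence covered in both replicates, 12.1% of clear starts were marked, with a high-copy share of 43.5% and 12.5 CpG per kb. Windows of 500 bp gave 13.98% marked and a high-copy share of 43.1%. Windows of 2.5 kb gave 1282 regions, 24.2% marked, 44.6% high-copy and 10.8 CpG per kb. The outermost 5′ end gave 43.5% high-copy. With protein-coding bodies allowed, 13.9% of starts were marked and 42.3% was high-copy. A fold of at least 4 left 343 regions, 6.95% marked, a median fold of 5.61, 44.6% high-copy and 13.5 CpG per kb, with 94.2% found in both replicates. Counting 16-mers present at least 10 times gave 62.8%. The pooled mm10 list gave 30.7% and gene bodies alone 18.3%. Chosen after seeing the data, leaving out the largest family gave 42.6% high-copy and 10.9 CpG per kb. Of 62 alternative values 32 moved by less than the spread between replicates, or by less than 1.5 times for counts, and 30 moved further. Depth is unknown, so a start with no region cannot be called free of the mark.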

Other observations

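Starts of small RNA genes lay outside the rule. Counted the same way, clear of protein-coding genes, 17.2% of 738 miRNA genes had a pooled region, with 12.5% in replicate 1 and 17.3% in replicate 2. For snRNA genes, which encode RNAs of the spliceosome, it was 19.6% of 863, with 14.9% and 17.8%. For snoRNA genes, which guide modification of ribosomal RNA, it was 15.3% of 934, with 13.6% and 17.02%. The annotated rRNA genes had 9.72% of 144, with 8.33% in each replicate. The first 3 shares lie near the 16.6% of the long noncoding and pseudogene starts.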
